A study of Mus musculus with 12 samples.

Results

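Fatty acid oxidation genes of mouse fat were followed in single-nucleus RNA counts from 4 depots. They are a list of 36 gene symbols, matched to the 32285 features counted, and all 36 were found. They cover the enzymes that carry fatty acids into mitochondria, the beta-oxidation spirals of mitochondria and peroxisomes, the electron transfer proteins behind them, acyl-CoA thioesterases, and the enzymes that set malonyl-CoA and coenzyme A. All 36 had at least 20 counts over both libraries in at least 1 of 15 comparisons, and 34 did in every one, the exceptions being Acot1 and Acot3.

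Beta-oxidation shortens fatty acids by repeated rounds of dehydrogenation, hydration, a further dehydrogenation and thiolytic cleavage, and passes electrons to the respiratory chain. Long chains enter mitochondria only as acylcarnitines, a step that malonyl-CoA blocks at carnitine palmitoyltransferase 1, whose liver form is Cpt1a and whose muscle form is Cpt1b. Brown fat burns fatty acids this way to make heat through uncoupled respiration, white fat mainly stores them, and beige adipocytes of white depots can take up the brown programme in the cold.

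The study compared brown and white depots at several ages and their depot-specific response to cold. Nuclei of male C57BL/6J mice on normal chow were stained with 7-AAD, sorted, and sequenced with a droplet 3′ kit. The 12 groups had 1 library each. iBAT (interscapular brown fat) and mPRAT (medial perirenal fat) were each sampled at 1, 2 and 6 months at 22 °C and at 6 months after 3 days at 4 °C. lPRAT (lateral perirenal fat) was sampled at 2 and 6 months at 22 °C, and iWAT (inguinal white fat) at 6 months at 22 °C and after 3 days at 4 °C. The spelled-out depot names are the usual readings of the abbreviations, which the labels leave as they are. The titles of the 6-month libraries stand beside an age field of 16 weeks, so these libraries are named by their titles. The labels do not say how many animals stand behind a library, and no genotype other than the strain is given. With 1 library per group no comparison has a replicate check. No p-value can be given, and every interval below covers counting error only, at 95%.

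Adipocyte nuclei were gated on 8 marker genes, none of which is a fatty acid oxidation gene of the list, and numbered from 1829 (lPRAT at 2 months) to 13821 (iBAT at 6 months). Their summed counts ran from 2314597 to 70199351 UMIs, and the median nucleus held from 935 (lPRAT at 2 months) to 6641 UMIs (cold iBAT). In every library 0 of the 8 adipocyte markers were at 0 in these nuclei, which the gate itself favours. Markers of other cells were also present. The epithelial list summed to 209 counts per 1000000 UMIs (CPM) in cold mPRAT and to 9.68 CPM in mPRAT at 6 months at 22 °C, and the list for stromal progenitors (ASPC) reached 302 CPM in lPRAT at 2 months. The Schwann list reached the highest level of the other lists, from 17.1 CPM up to 352 CPM in iWAT at 22 °C. Another list exceeded it in cold mPRAT (epithelial), in lPRAT at 2 months (ASPC) and in iBAT at 2 months (skeletal muscle, 100 against 54.3 CPM). Cold mPRAT also stood apart because 66.0% of its barcodes exceeded the mitochondrial limit. Pairs of libraries shared between 1 and 59 barcodes. Levels below are CPM of the summed adipocyte nuclei. They are read across libraries within a gene, since longer genes can collect more counts, in particular if intronic reads were counted, which the sources used here do not say.

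Promoter windows are shown first for a few of the members. RefSeq windows (GRCm38.p6, 300 bases around each start site) matched 30 of the 36 members, with 33 windows in all. Cpt1b was among the members without a window. Hadha and Hadhb encode the alpha and beta subunits of the mitochondrial trifunctional protein, which performs the last 3 steps of the spiral on long chains. They start 273 bases apart on opposite strands, and their windows share 228 bases. The Hadhb window (chr5:30155003-30155302, plus strand) is shown for this shared start region. Those of Acadm, the medium-chain acyl-CoA dehydrogenase (chr3:153944594-153944893, minus strand), Acot4, a peroxisomal thioesterase (chr12:84038129-84038428, plus strand), and Cpt1a (chr19:3323051-3323350, plus strand) are shown because each holds a nuclear receptor hexamer. Each runs 5′ to 3′ on the gene's strand. Capitals mark the hexamer AGGTCA and the GC box GGGCGG on either strand, so that TGACCT and CCGCCC are the same motifs read from the other strand.
Hadhb: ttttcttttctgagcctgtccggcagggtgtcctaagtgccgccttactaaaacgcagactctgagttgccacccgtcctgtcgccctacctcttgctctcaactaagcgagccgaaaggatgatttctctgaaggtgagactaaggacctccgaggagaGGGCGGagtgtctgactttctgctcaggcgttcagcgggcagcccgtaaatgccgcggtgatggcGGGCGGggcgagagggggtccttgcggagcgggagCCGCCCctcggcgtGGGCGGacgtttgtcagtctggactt
Acadm: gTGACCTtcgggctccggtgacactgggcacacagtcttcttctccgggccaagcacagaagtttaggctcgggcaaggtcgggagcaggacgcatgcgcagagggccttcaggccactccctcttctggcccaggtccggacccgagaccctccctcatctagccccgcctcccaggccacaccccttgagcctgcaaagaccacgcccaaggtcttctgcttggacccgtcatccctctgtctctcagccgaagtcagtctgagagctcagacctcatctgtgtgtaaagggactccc
Acot4: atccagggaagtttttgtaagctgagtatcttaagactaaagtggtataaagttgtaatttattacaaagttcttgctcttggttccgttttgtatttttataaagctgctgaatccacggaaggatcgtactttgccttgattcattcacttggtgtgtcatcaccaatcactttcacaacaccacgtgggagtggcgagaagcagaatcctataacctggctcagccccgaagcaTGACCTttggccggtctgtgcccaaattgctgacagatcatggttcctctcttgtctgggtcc
Cpt1a: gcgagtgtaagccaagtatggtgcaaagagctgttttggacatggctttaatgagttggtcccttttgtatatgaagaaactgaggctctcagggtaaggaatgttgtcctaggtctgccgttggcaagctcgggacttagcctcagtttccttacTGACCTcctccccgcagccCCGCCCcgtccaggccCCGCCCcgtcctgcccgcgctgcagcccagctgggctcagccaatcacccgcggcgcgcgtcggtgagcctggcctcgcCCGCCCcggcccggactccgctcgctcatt
The hexamer lies 249 bases before the start site in Acadm, 94 before it in Cpt1a and 13 before it in Acot4. It occurred in 7 of 33 member windows (21.2%), against 16.2% of all 32544 windows. Acot3 has overlapping windows that hold the same copy, and by gene the hexamer was in 6 of 30. The GC box occurred in 20 of 33 (60.6%), against 35.9% of all windows. The direct repeat of the hexamer with 1 base between its copies (the PPAR response element of the DR1 type), which itself holds AGGTCA, was in 0 of 33 member windows and in 0.0399% of all. The extended site TCAAGGTCA, which also holds AGGTCA, was in 0 of 33 and in 0.412% of all. These are matches of letters in short windows and describe no binding.

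At equal age and temperature the 36 genes together were most abundant in iBAT. Their summed level in adipocyte nuclei was 6999, 6499 and 8294 CPM in iBAT at 1, 2 and 6 months and 10382 CPM in cold iBAT. In mPRAT it was 5208, 4645 and 4924 CPM at 1, 2 and 6 months and 7629 CPM in the cold. lPRAT held 2152 and 2907 CPM at 2 and 6 months, and iWAT 2410.4 CPM at 22 °C and 3410.5 CPM in the cold. The 8 iBAT and mPRAT libraries all lay above the 4 lPRAT and iWAT libraries, and within each depot sampled in the cold the cold library was the highest. Pank1, a pantothenate kinase that controls coenzyme A synthesis, made up between 10.1 and 20.4% of the sum in iBAT and mPRAT. Without Pank1 and Acot11, a long-chain acyl-CoA thioesterase known to be induced in brown fat by cold, the sums were 5391, 5256, 6111 and 7215 CPM in iBAT, 4250.2, 4092, 4282 and 6058 CPM in mPRAT, 2133 and 2895 CPM in lPRAT, and 2385 and 3293 CPM in iWAT, in the same order of groups. The order of the depots was thus kept without those genes.

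**Figure D1:**
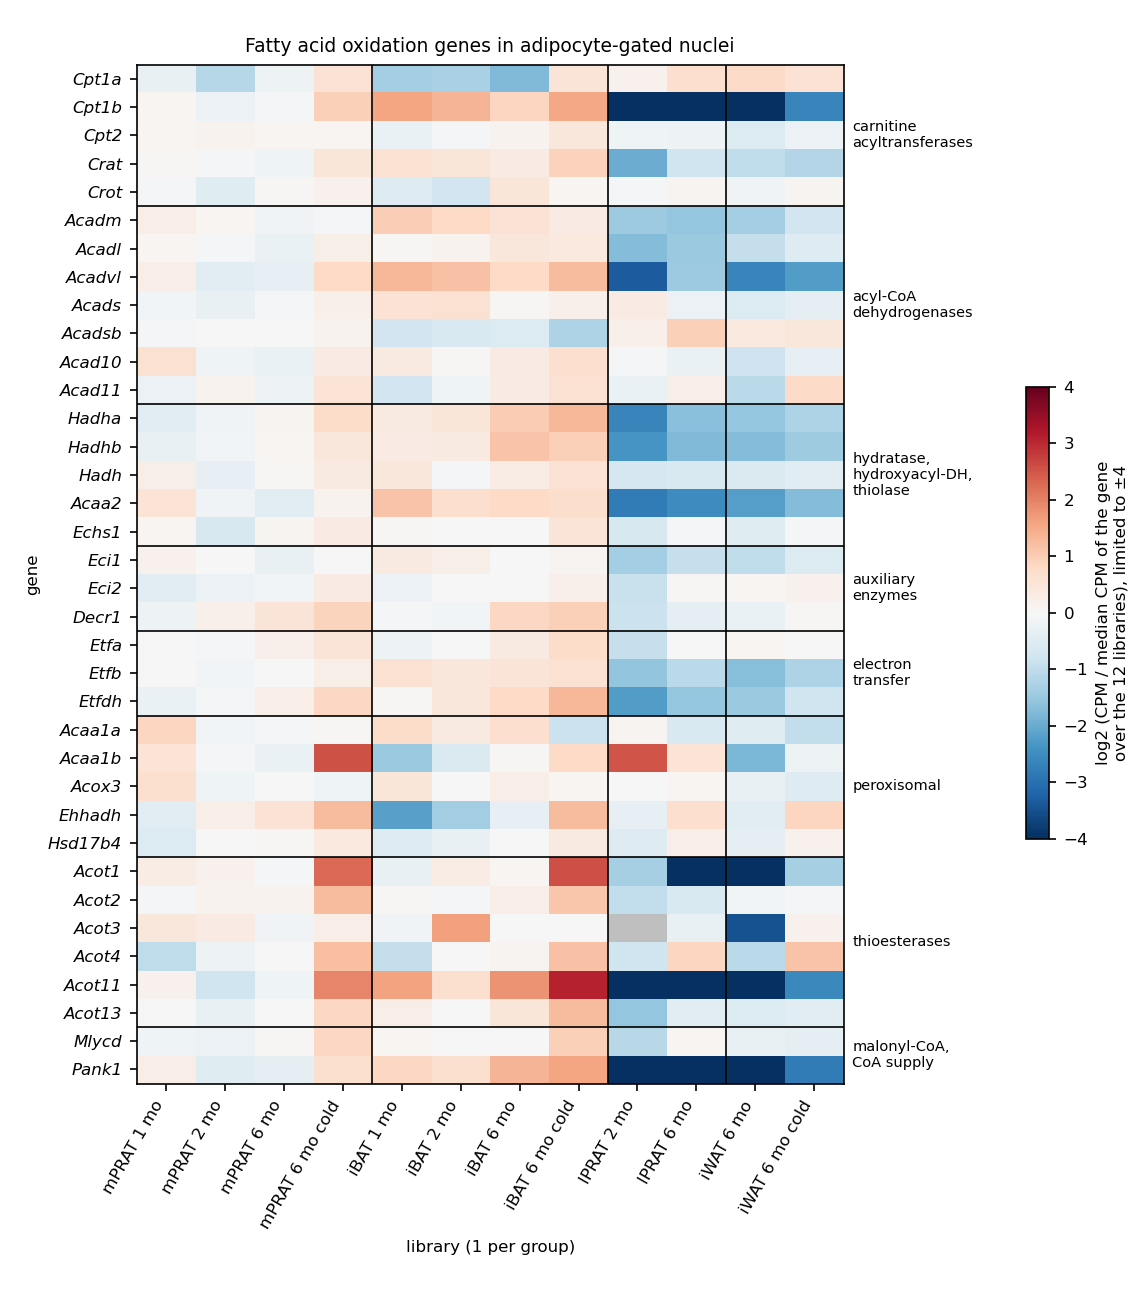
Level of each of the 36 genes (rows, grouped by role) in the adipocyte-gated nuclei of the 12 libraries (columns), as log2 of CPM over the gene's median in the 12 libraries, with the colour limited to 4 in either direction and grey for a level of 0. Cpt1b, Acadvl, Acot11 and Pank1 are higher in every iBAT and mPRAT library than in any lPRAT or iWAT library. Each of these genes still lies below its median in some warm mPRAT libraries.

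Of the 36 genes, 16 were higher in all 8 iBAT and mPRAT libraries than in all 4 lPRAT and iWAT libraries (Cpt1b, Crat, Acadm, Acadl, Acadvl, Hadha, Hadhb, Hadh, Acaa2, Eci1, Etfb, Etfdh, Acot1, Acot11, Acot13 and Pank1). Over all 19967 genes with enough counts, 6.53% were. One gene, Acadsb, the dehydrogenase of short branched chains, was lower in all 8, against 3.60% of all genes. The same counts, 16 and 1, were found without cold mPRAT (7.06% and 3.82% of all genes) and without lPRAT at 2 months (9.23% and 5.58%).

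At the carnitine step Cpt1b, on chromosome 15 from 89416405 to 89425863, stood at 713, 614 and 433 CPM in iBAT at 1, 2 and 6 months and at 705 CPM in cold iBAT. In mPRAT it stood at 256, 205, 225 and 468 CPM in the same order. It was 6.05 and 4.92 CPM in lPRAT at 2 and 6 months, 3.08 CPM in iWAT at 22 °C and 38.2 CPM in cold iWAT. iBAT and mPRAT did not overlap with lPRAT and iWAT, and its highest level was 231-fold its lowest. In warm iWAT and in lPRAT at 6 months its share of thinned adipocyte nuclei, given at the end, was near or below that of macrophages. Ratios against these levels may thus include free RNA, whose part was not tested. Cpt1a, on chromosome 19 from 3322334 to 3385733, ran the other way at 22 °C. It was 5.85, 6.11 and 4.38 CPM in iBAT at 1, 2 and 6 months, 12.1, 6.85 and 13.1 CPM in mPRAT, 16.8 and 24.0 CPM in lPRAT at 2 and 6 months, and 25.6 CPM in iWAT. In the cold it was 21.2 CPM in iBAT, 22.5 CPM in mPRAT and 22.1 CPM in iWAT, so the 3 cold libraries lay close together. Macrophages held more Cpt1a than adipocytes, as given at the end, so these low adipocyte levels may include free RNA, whose part was not tested. The ratio of Cpt1b to Cpt1a counts, read only for its differences between libraries, was 122, 100.4 and 99.0 in iBAT at 1, 2 and 6 months and 33.3 in cold iBAT. It was 21.2, 29.98, 17.2 and 20.8 in mPRAT in the same order. The lPRAT values were 0.359 and 0.205, and the iWAT values 0.120 at 22 °C and 1.73 in the cold. Crat, carnitine acetyltransferase, ranged from 138 to 292 CPM in iBAT and mPRAT and from 39.7 to 89.5 CPM in lPRAT and iWAT. Cpt2, the inner-membrane carnitine palmitoyltransferase, ranged only from 57.4 to 117 CPM over the 12 libraries and differed by 2-fold in no comparison.

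**Figure D2:**
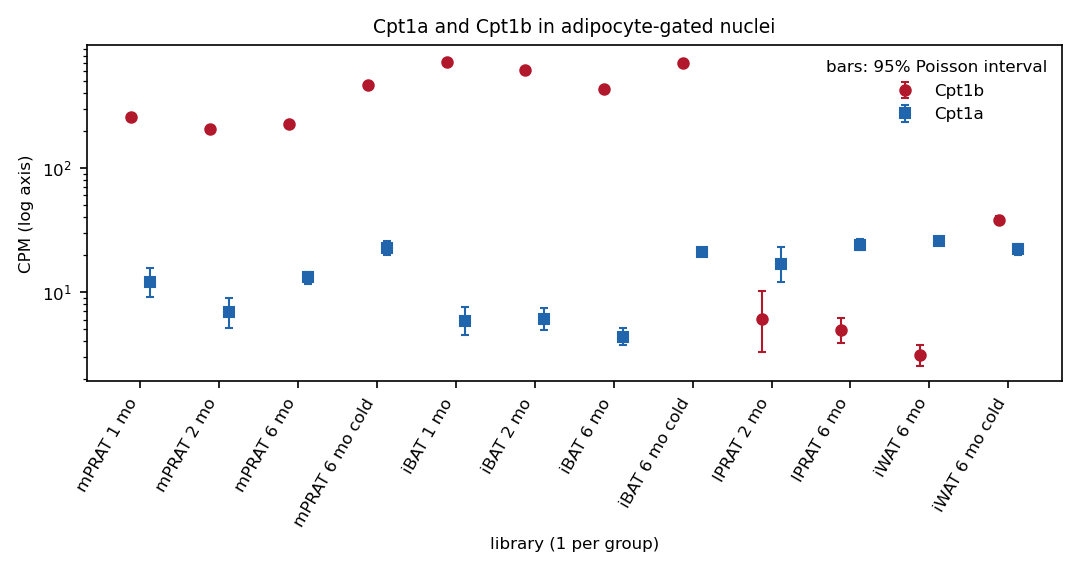
CPM (log axis) of Cpt1b and Cpt1a in adipocyte-gated nuclei of each library, with exact Poisson intervals that cover counting error only. Cpt1b lies between 205 and 713 CPM in iBAT and mPRAT and between 3.08 and 38.2 CPM in lPRAT and iWAT, while the cold libraries of Cpt1a lie together near 22 CPM.

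In the mitochondrial spiral Acadvl, the very-long-chain dehydrogenase, stood at 109, 97.3, 76.4 and 105 CPM in iBAT at 1, 2 and 6 months and in the cold, and at 52.8, 32.2, 34.4 and 75.1 CPM in mPRAT. It was 4.32 and 15.9 CPM in lPRAT at 2 and 6 months and 7.00 and 9.36 CPM in iWAT at 22 °C and in the cold. Every iBAT and mPRAT library thus lay above every lPRAT and iWAT library. Acadm stood at 786, 694, 596 and 496 CPM in iBAT and at 477, 415, 359 and 378 CPM in mPRAT, against 145 and 136 CPM in lPRAT and 155 and 231 CPM in iWAT. Acadl, the long-chain dehydrogenase, ranged from 282 to 466 CPM in iBAT and mPRAT and from 101 to 236 CPM in lPRAT and iWAT. Acads, the short-chain dehydrogenase, showed no such split, at 29.4 to 54.2 CPM in iBAT and mPRAT and 24.8 to 44.9 CPM in lPRAT and iWAT. Acadsb was lower in iBAT, at 47.2 to 75.7 CPM, than in lPRAT and iWAT, at 129 to 213 CPM. Another counted gene, Gm44982, overlaps Acadsb on its strand, so its reads may be shared.

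Hadha stood at 386, 425, 608 and 756 CPM in iBAT at 1, 2 and 6 months and in the cold. It was 226, 275, 328 and 500.0 CPM in mPRAT, 48.8 and 94.2 CPM in lPRAT, and 104 and 127 CPM in iWAT. All iBAT and mPRAT libraries were above all lPRAT and iWAT libraries. Its partner Hadhb followed at 416, 430.4, 741 and 641 CPM in iBAT, 273, 312, 355 and 452 CPM in mPRAT, 64.4 and 97.3 CPM in lPRAT, and 99.9 and 125 CPM in iWAT. The Hadha to Hadhb count ratio stayed between 0.758 and 1.18 over the 12 libraries while each gene varied more than 10-fold (Hadha 15.5-fold, Hadhb 11.5-fold). Acaa2, the mitochondrial thiolase, ranged from 93.3 to 275 CPM in iBAT and mPRAT and from 17.7 to 37.4 CPM elsewhere. Echs1, the short-chain enoyl-CoA hydratase, ranged only from 35.3 to 78.5 CPM, a 2.22-fold span.

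Transcripts of the proteins that take electrons from the spiral did not split by depot as a block. Etfdh, which passes them to ubiquinone, stood at 128, 171, 216 and 315 CPM in iBAT, 104, 122, 149 and 223 CPM in mPRAT, 26.4 and 42.6 CPM in lPRAT, and 44.4 and 72.4 CPM in iWAT. Etfb, the beta subunit of the electron transfer flavoprotein, ranged from 81.7 to 136 CPM in iBAT and mPRAT and from 27.2 to 41.7 CPM in lPRAT and iWAT. Etfa, the alpha subunit of the same protein, was 389 CPM in iWAT and 479.9 CPM in iBAT at 6 months at 22 °C. Over the 12 libraries it ranged from 198 CPM in lPRAT at 2 months to 626 CPM in cold iBAT. The Etfa to Etfb count ratio ran from 2.40 (iBAT at 1 month) to 14.3 (iWAT at 22 °C). The auxiliary enzymes for unsaturated chains, Eci1, Eci2 and Decr1, summed to between 345 and 527 CPM in iBAT and mPRAT and to between 183 and 350.4 CPM in lPRAT and iWAT, so that their ranges overlapped.

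The summed level of the 5 peroxisomal enzymes was 351, 372, 517 and 774 CPM in iBAT, 469, 518, 574 and 921 CPM in mPRAT, 547 and 634 CPM in lPRAT, and 362 and 605 CPM in iWAT. The depots overlapped throughout. Hsd17b4, the bifunctional enzyme of branched and very long chains, varied least of all 36 genes, 1.93-fold, from 158 to 305 CPM. Ehhadh, the bifunctional enzyme best known as a target of the nuclear receptor PPARα, varied 10.8-fold, from 33.0 CPM in iBAT at 1 month to 355 CPM in cold iBAT. Acaa1a and Acaa1b, are near-identical peroxisomal thiolases between which reads may be split. The Acaa1a to Acaa1b count ratio was 9.31 in iBAT at 1 month and 4.99 in iWAT at 22 °C, but 0.620 in cold iBAT, 0.352 in cold mPRAT and 0.372 in lPRAT at 2 months. Because the copies are near-identical, it is uncertain which of them gave the reads. The part of read assignment in this ratio was not tested.

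Acad10, a less well characterised dehydrogenase, ranged from 51.2 to 145 CPM, and Hadh from 87.7 to 207 CPM. Acox3 ranged from 23.2 to 52.2 CPM, Mlycd from 16.4 to 68.1 CPM, Acot13 from 9.07 to 63.0 CPM and Acot2 from 1.73 to 8.20 CPM. In 8 genes (Cpt2, Acads, Hadh, Echs1, Eci2, Etfa, Acox3 and Hsd17b4) no comparison passed the 2-fold limit that is used below, which held for 30.1% of all genes.

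At 6 months and 22 °C the depots were compared pairwise. A gene was counted as different where the levels differed by 2-fold or more, the interval of the ratio left out 1, and both libraries together held at least 20 counts. In iBAT over iWAT, 21 of 35 genes were higher (17.9% of all genes were) and 1 was lower (18.6% of all genes). The median log2 ratio of the members was 1.16, against 0.06 over all genes. Acot11 stood at log2 7.64 with an interval of 7.33 to 7.96, from 495 against 2.48 CPM. That iWAT level was below the 4.52 CPM of iWAT macrophages, which rested on 3 counts. The part of free RNA in this Acot11 level was not tested. Cpt1b was at 7.13 (6.86 to 7.42) and Pank1 at 6.19 (6.09 to 6.29). Acot1 gave 5.30, with an interval as wide as 2.75 to 10.64 because iWAT held 1 count, and Acadvl gave 3.45 (3.26 to 3.64). The 1 lower gene was Cpt1a, at -2.55 (-2.80 to -2.31). By role, 5 of 7 acyl-CoA dehydrogenases and 3 of 5 genes of the hydratase, hydroxyacyl dehydrogenase and thiolase steps were higher, with a median log2 ratio of 2.55 for the latter. The share of members that was higher was thus well above that of all genes, and the share that was lower well below.

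mPRAT over lPRAT gave 12 of 35 genes higher (11.4% of all genes) and 0 lower (10.6%), with a median of 0.53 against 0.01 over all genes, which became 0.24 with 10 CPM added. Acot11 was at log2 7.00 (6.28 to 7.84), again against a level (0.984 CPM) below that of macrophages (15.5 CPM), with Pank1 at 5.57 (5.34 to 5.79) and Cpt1b at 5.52 (5.19 to 5.87). In thinned nuclei of lPRAT a Pank1 UMI was likewise rarer in adipocytes than in macrophages. Acaa2 stood at 2.10, and Acot1 at 3.97 (1.36 to 9.33) on 1 count in lPRAT. Cpt1a was at -0.87, short of 2-fold. Of the 5 peroxisomal enzymes 0 differed here, while 2 were higher in each of mPRAT over iWAT, iBAT over iWAT and lPRAT over iWAT. mPRAT over iWAT gave 14 of 35 higher (12.8%) and 0 lower (8.46%), with a median of 0.72 against 0.10. Cpt1b led at 6.19 (5.92 to 6.48), followed by Acot11 at 5.67 (5.36 to 5.99), Acot1 at 5.17 (2.56 to 10.53, again on 1 count), Pank1 at 4.48 and Acadvl at 2.30, with Cpt1a at -0.97. In all 3 of these comparisons 11 of 35 genes were 2-fold higher (5.12% of all genes), namely Cpt1b, Acadm, Acadvl, Hadha, Hadhb, Acaa2, Etfb, Etfdh, Acot1, Acot11 and Pank1. The comparisons share libraries and are not independent. In each the share of members that was higher exceeded the share of all genes.

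Fewer genes differed between iBAT and mPRAT, and between lPRAT and iWAT. In mPRAT over iBAT, 1 of 35 genes was higher (13.5% of all genes) and 5 were lower (7.59%), with a median of -0.32 against 0.01. The lower genes were Acot11 at -1.97, Pank1 at -1.71, Acaa2 at -1.22, Acadvl at -1.15 and Hadhb at -1.06, and the higher gene was Cpt1a at 1.58 (1.31 to 1.86). Cpt1b was at -0.94. In lPRAT over iWAT, 5 of 34 genes were higher (10.6%) and 2 were lower (7.56%), with a median of 0.16 against 0.06. Acaa1b at 2.38, Acot4 at 1.93, Acad11 at 1.35, Acadvl at 1.18 and Ehhadh at 1.12 were the higher genes, and Acot11 at -1.34 and Pank1 at -1.09 the lower ones. Cpt1b was at 0.67 and Cpt1a at -0.10. In lPRAT over iWAT the shares were thus near those of all genes. In mPRAT over iBAT the share of members higher was below that of all genes, and the share lower above it.

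Cold was compared with 22 °C at 6 months in 3 depots, 1 cold with 1 warm library each. In mPRAT 7 of 35 genes were 2-fold higher in the cold (10.2% of all genes) and 0 were lower (12.1%). The median log2 ratio was 0.55, against -0.05 over all genes. In iBAT 5 of 36 were higher (10.0%) and 1 was lower (17.0%), with a median of 0.32 against -0.12. In iWAT 7 of 34 were higher (3.81%) and 0 were lower (13.6%), with a median of 0.38 against -0.23. Ratios of any size above 0 numbered 34 of 35 in mPRAT (46.7% of all genes), 28 of 36 in iBAT (43.6%) and 28 of 34 in iWAT (32.3%). The shares that were 2-fold higher lay above those of all genes in mPRAT and iWAT and close to them in iBAT. In mPRAT the 7 became 3 with 10 CPM added and 4 with means over nuclei, and in iBAT the 5 became 3 with 10 CPM added. TMM scaling shifted all log2 ratios up by 0.20 in iBAT and 0.17 in iWAT, and left the direction of these 3 medians as it was. The iBAT median became 0.52 under TMM scaling and the iWAT median 0.61 with the median of all genes set to 0.

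Acot11 and Acot4 were the 2 of 34 genes 2-fold higher in the cold in all 3 depots, as 0.783% of all genes were. Acot11, on chromosome 4 from 106744555 to 106804998, stood at 495 CPM in iBAT at 6 months at 22 °C and at 1223 CPM in the cold. In mPRAT it went from 126 to 556 CPM and in iWAT from 2.48 to 24.3 CPM. Every cold library lay above its warm one, by log2 1.30 (1.28 to 1.33), 2.14 (2.08 to 2.20) and 3.29 (2.95 to 3.64). The warm iWAT level rested on 87 counts. With nuclei thinned to 1000 UMIs, 0.243% of warm iWAT adipocytes held an Acot11 UMI, against 0.521% of macrophages and 0.187% of ASPC. In cold iWAT these shares were 2.68%, 0.246% and 0.383%. The part of free RNA in the iWAT ratio was not tested. Acot4 went from 13.6 to 28.7 CPM in iBAT, from 12.6 to 29.6 CPM in mPRAT and from 6.08 to 28.2 CPM in iWAT, so that the 3 cold levels lay together. Its ratios were log2 1.07 (0.93 to 1.22), 1.24 (1.00 to 1.47) and 2.21 (1.98 to 2.45). Of its neighbours, the mitochondrial thioesterase Acot2 was at 1.13 (0.69 to 1.57) in mPRAT, and Acot1, the cytosolic form, was at 2.34 (1.63 to 3.08) in mPRAT and 2.50 (2.05 to 2.99) in iBAT. Acot1 went from 1.03 to 5.21 CPM in mPRAT and from 1.13 to 6.38 CPM in iBAT. Epithelial-gated nuclei of cold mPRAT held 14.6 CPM of Acot1, on 22 counts. The part of epithelial transcripts in the mPRAT ratio of Acot1 was not tested. In iWAT Acot1 rested on 1 count at 22 °C and 7 counts in the cold. Acot1 to Acot4 lie together on chromosome 12 between 83987861 and 84060402 and are related copies, Acot1 and Acot2 the most alike, so reads may be split between them. Acot3 held 0 counts in lPRAT at 2 months, which allows a level of up to 1.30 CPM (3 counts), and 0.0286 to 0.997 CPM elsewhere.

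Cpt1a and Cpt1b were both higher in cold iBAT and cold mPRAT, past 2-fold only for Cpt1a in iBAT and Cpt1b in mPRAT. In cold iBAT Cpt1a was higher by log2 2.28 (2.04 to 2.51), and Cpt1b by 0.70 (0.68 to 0.73). In cold iWAT Cpt1b was higher by 3.63 (3.33 to 3.94), the largest ratio there among members with at least 20 counts, and Cpt1a was at -0.21 (-0.39 to -0.04), which became 0.02 where the median of all genes was set to 0. In cold mPRAT Cpt1b was higher by 1.05 (1.00 to 1.11) and Cpt1a by 0.78 (0.53 to 1.03). Whether the depots differ in these responses was not tested. In iWAT Pank1 went from 23.1 to 93.7 CPM, log2 2.02 (1.89 to 2.14), and Acad11, a dehydrogenase of hydroxylated acyl-CoAs, from 102 to 365 CPM, log2 1.84 (1.78 to 1.90). The cold iWAT level of Acad11 was above the 329 CPM of cold iBAT, whereas that of Pank1 stayed far below the 1944 CPM of cold iBAT.

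Ehhadh went from 117 to 355 CPM in iBAT, log2 1.60 (1.55 to 1.64), from 108 to 264 CPM in iWAT, log2 1.29 (1.23 to 1.35), and from 218 to 353 CPM in mPRAT. It was higher in every cold library, and past 2-fold in iBAT and iWAT. Acaa1a was the 1 gene 2-fold lower in cold iBAT, from 92.7 to 32.1 CPM, log2 -1.53 (-1.61 to -1.45). Its near-identical copy Acaa1b went from 30.6 to 51.8 CPM there, and the part of read assignment between the copies was not tested. Acaa1b had the largest cold ratio in mPRAT, from 24.5 to 173 CPM, log2 2.82 (2.68 to 2.95). Epithelial-gated nuclei of mPRAT held 194 CPM of Acaa1b at 22 °C and 311 CPM in the cold, and the epithelial marker sum of the adipocyte-gated nuclei was 9.68 and 209 CPM. The part of these epithelial transcripts in the Acaa1b ratio was not tested. In cold iWAT Acaa1b went from 8.31 to 25.8 CPM, log2 1.63. Acadvl at 1.12 (0.98 to 1.27) also passed 2-fold in mPRAT. Over the 3 depots 11 of 36 genes were 2-fold higher in at least 1 (16.5% of all genes). Without the cold mPRAT library 9 of 36 were in iBAT or iWAT (12.2%), and 3 of 34 (Acot11, Acot4 and Ehhadh) were in both (0.916%). With no mitochondrial limit the cold mPRAT count was again 7 higher, and the median again 0.55.

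**Figure D3:**
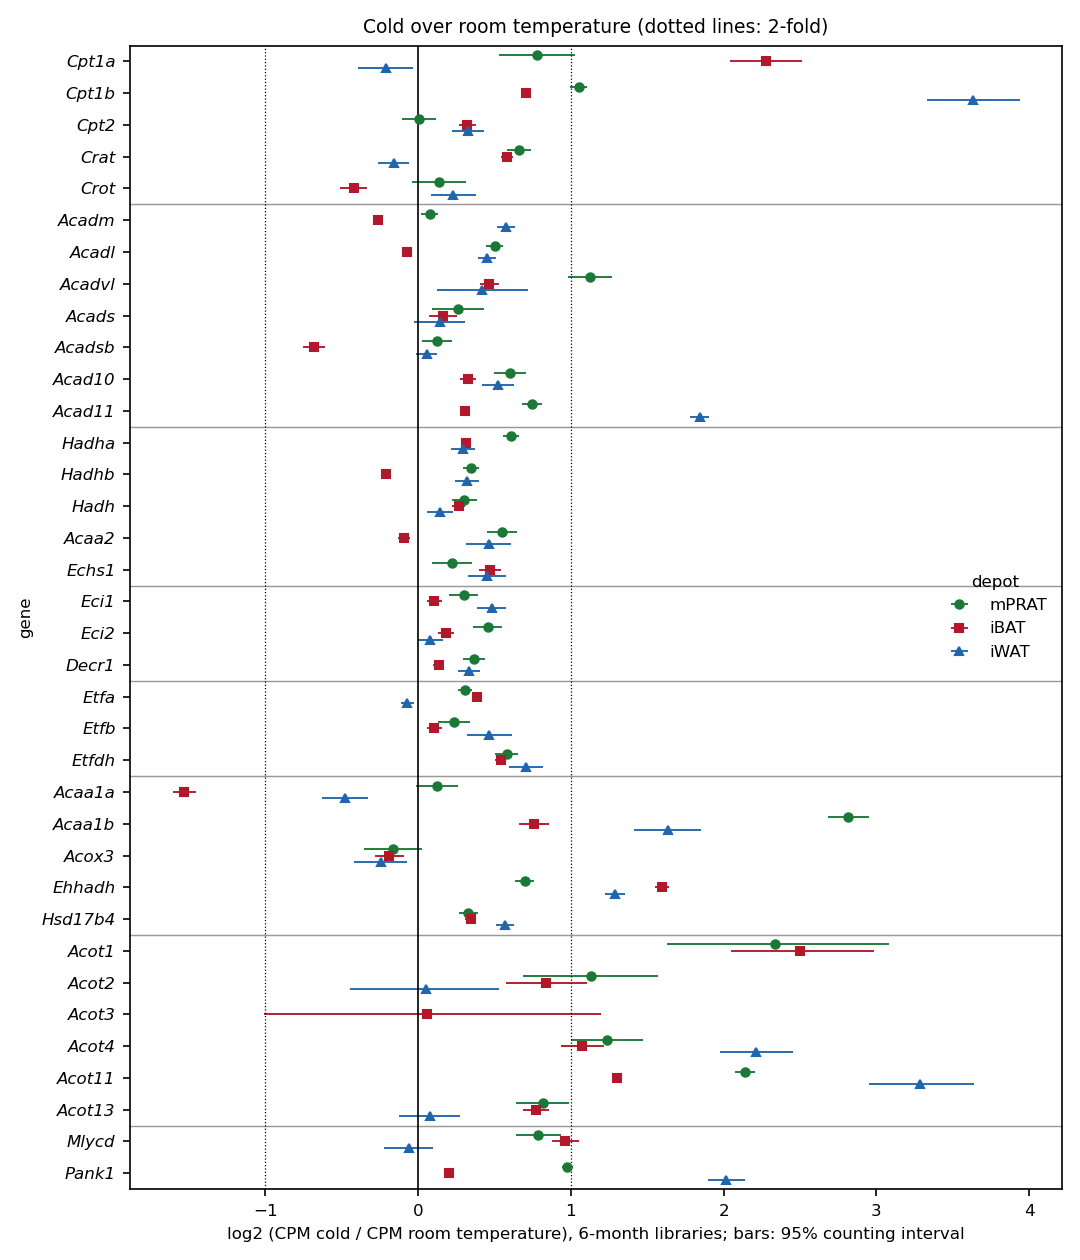
Points are log2 ratios of cold over 22 °C levels for the 36 genes in adipocyte-gated nuclei of iBAT, mPRAT and iWAT at 6 months, with exact intervals that cover counting error only and dotted lines at 2-fold. Acot11 and Acot4 lie above 1 in all 3 depots, Cpt1b is highest in iWAT at 3.63, and Acaa1a lies at -1.53 in iBAT.

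In the cold the depots still differed. In cold iWAT over cold iBAT, 1 of 36 genes was higher (17.5%) and 16 were lower (25.3%), with a median of -0.94 against -0.21. Acot11 at -5.66, Pank1 at -4.38, Cpt1b at -4.21, Acot1 at -3.91 and Acadvl at -3.49 were lowest, Acadsb at 1.69 was the higher gene, and Cpt1a was at 0.06 (-0.11 to 0.23). In cold mPRAT over cold iBAT, 2 of 36 were higher (12.8%) and 1 was lower (5.09%), with a median of -0.20 against 0.04. Acaa1b at 1.74 and Acadsb at 1.37 were higher and Acot11 at -1.14 was lower, while Cpt1b was at -0.59 and Cpt1a at 0.08 (-0.12 to 0.29). The epithelial marker sum of the adipocyte-gated nuclei was 209 CPM in cold mPRAT and 0.954 CPM in cold iBAT. The part of epithelial transcripts, or of reads shared with Acaa1a, in this Acaa1b ratio was not tested. Under TMM scaling the split of this comparison was 2 higher and 2 lower, and its median -0.32.

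Age moved fewer of the genes past 2-fold in iBAT and mPRAT. From 1 to 2 months, 0 of 34 genes were higher (2.06%) and 0 were lower (7.10%) in mPRAT, with a median of -0.14, the same as over all genes. That median became 0.09 under TMM scaling, which shifted all log2 ratios by 0.23. Acot11 at -0.97 (-1.12 to -0.81), Acaa1a at -0.96 (-1.15 to -0.76) and Acox3, the peroxisomal oxidase of branched chains, at -0.82 came closest, beside Cpt1a at -0.82 (-1.39 to -0.24) and Cpt1b at -0.32. In iBAT from 1 to 2 months, 0 of 35 were higher (2.24%) and 0 lower (5.39%), with a median of -0.07 against -0.03, which became 0.02 under TMM scaling. Acot4 at 0.98 (0.57 to 1.40), Acot11 at -0.98 (-1.04 to -0.91) and Acaa1b at 0.92 (0.59 to 1.25) were the largest there, with Cpt1a at 0.06 and Cpt1b at -0.21. TMM scaling gave 1 gene higher in mPRAT and 2 in iBAT.

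From 2 to 6 months, 0 of 35 genes were higher (9.72%) and 0 were lower (5.21%) in mPRAT, with a median of 0.13 against 0.15, which became -0.02 where the median of all genes was set to 0. Cpt1a at 0.94 (0.51 to 1.39), Echs1 at 0.75 and Acot11 at 0.62 (0.49 to 0.74) were the largest. Cpt1b was at 0.14, and at -0.02 with the median of all genes set to 0. In iBAT 3 of 36 were higher (9.28%) and 1 was lower (6.59%), with a median of 0.29 against 0.07. Crot, the peroxisomal carnitine octanoyltransferase, went from 19.5 to 46.7 CPM, log2 1.26 (1.08 to 1.44). Acot11 went from 223 to 495 CPM, log2 1.15 (1.10 to 1.20), and Ehhadh from 56.3 to 117 CPM, log2 1.06 (0.95 to 1.17). All 3 had higher levels at 6 months than at 1 and 2 months. The lower gene, Acot3, held few counts, with log2 -1.66 (-2.89 to -0.47). Cpt1b was at -0.50 and Cpt1a at -0.48. A count of 3 of 36 is no more than the share of all genes.

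In lPRAT from 2 to 6 months, 5 of 34 were higher (12.3%) and 2 were lower (10.2%), with a median of 0.50 against 0.16. Acadvl at 1.88 (0.97 to 2.96), Acot4 at 1.66, Mlycd, which breaks down malonyl-CoA, at 1.18, Crat at 1.17 and Acot13, a mitochondria-associated thioesterase, at 1.10 were the higher genes. The 2-month library held 10 counts of Acadvl. Acaa1b at -1.98 (-2.16 to -1.79) and Acot11 at -1.62 (-3.00 to -0.08) were lower. Cpt1a was at 0.51 (0.03 to 1.03), which turned to -0.13 (-0.78 to 0.59) in nuclei with at least 2000 UMIs, and Cpt1b was at -0.30 (-1.13 to 0.64). The 5 higher became 8 under TMM scaling and 0 with 10 CPM added, and the 2 lower became 1 under 5 alternatives. The 2-month library was also the shallowest, and its adipocyte-gated nuclei held 302 CPM of ASPC and 78.2 CPM of macrophage markers. The part of these transcripts in the lPRAT ratios was not tested. In nuclei with at least 2000 UMIs the median was 0.39, and 1 gene was lower.

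Other genes of the pathway outside the 36 were read from 5 lists of 88 genes. In iBAT over iWAT the transport and activation list had 6 of 13 tested genes 2-fold higher and 1 lower, against the 17.9% and 18.6% of all genes given above. Slc25a20, the carrier that exchanges acylcarnitines for carnitine across the inner membrane, was higher by log2 2.45. The list of malonyl-CoA enzymes and regulators had 10 of 18 higher and 2 lower, with Ppara, a nuclear receptor that controls fatty acid oxidation, at 4.50 and the related regulator Esrrg at 5.06. Of the further mitochondrial genes 4 of 23 were higher and 0 lower, and of the further peroxisomal genes 8 of 28 were higher and 1 lower.

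In the cold the transport and activation list had 4 of 13 genes higher in iBAT, 4 of 13 in mPRAT and 5 of 13 in iWAT, and 0 lower in any of them. Of all genes 10.0%, 10.2% and 3.81% were higher in these 3 comparisons, and 17.0%, 12.1% and 13.6% were lower, as above. Acsl5, an acyl-CoA synthetase, was higher by log2 2.50 in iBAT and 3.68 in mPRAT, while in iWAT it stood at 18.1 CPM at 22 °C and 19.5 CPM in the cold. Slc25a20 went from 219 to 493 CPM in mPRAT, log2 1.17, and from 373 to 767 CPM in iBAT, log2 1.04. The list of malonyl-CoA enzymes and regulators had 4, 4 and 7 of 18 higher in iBAT, mPRAT and iWAT. Ucp1 was among them in each depot, at log2 1.74, 1.87 and 5.29, the last on 26 counts in warm iWAT. The malonyl-CoA enzymes Acacb in mPRAT (1.16) and iWAT (1.73) and Acaca in iWAT (1.58) were among them too. The further mitochondrial genes had 3, 4 and 2 of 23 higher, and the further peroxisomal genes 1, 4 and 3 of 28, which is closer to the shares of all genes or, for the peroxisomal genes in iBAT, below. Ketone body genes had 1 of 5, 1 of 5 and 0 of 4 higher. Lower genes numbered 0 to 2 in each of these 4 lists and depots, and for ketone body genes 1 of 5, 0 of 5 and 1 of 4.

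Adipocyte nuclei held more of the 36 transcripts than any other gated class. Their summed level exceeded that of the other class in 60 of 60 pairs of class and library with at least 50 nuclei. These pairs reuse the adipocyte profiles of the 12 libraries and are not independent. ASPC nuclei held 1029 to 1954 CPM, endothelial nuclei 1045 to 2710.3 CPM, macrophages 997 to 2175 CPM and kidney tubule nuclei of mPRAT 2707 to 3335 CPM. The log2 ratio of adipocytes to the class ran from 0.64, against kidney tubule nuclei in mPRAT at 1 month, to 2.55. Single genes were less uniform. Acad11 was 2-fold higher in adipocytes in 59 of 60 pairs, Acadm, Eci1 and Ehhadh in 58, and Hadh, the hydroxyacyl-CoA dehydrogenase of shorter chains, in 55. Acot11 was 2-fold higher in 44 of 56 pairs and lower in 5. Crot was higher in 1 of 60 and lower in 5, Acox3 in 11 and 5, Acaa2 in 38 and 6, and Acot2 in 0 and 3 of 52. Per pair, between 5.67 and 29.6% of all genes were 2-fold higher in adipocytes, and between 8.00 and 26.3% were 2-fold lower. Cpt1a was 2-fold lower in adipocytes in 55 of 60 pairs and higher in 0. Macrophages held 84.6 to 232 CPM of Cpt1a, above the highest adipocyte level of 25.6 CPM.

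**Figure D4:**
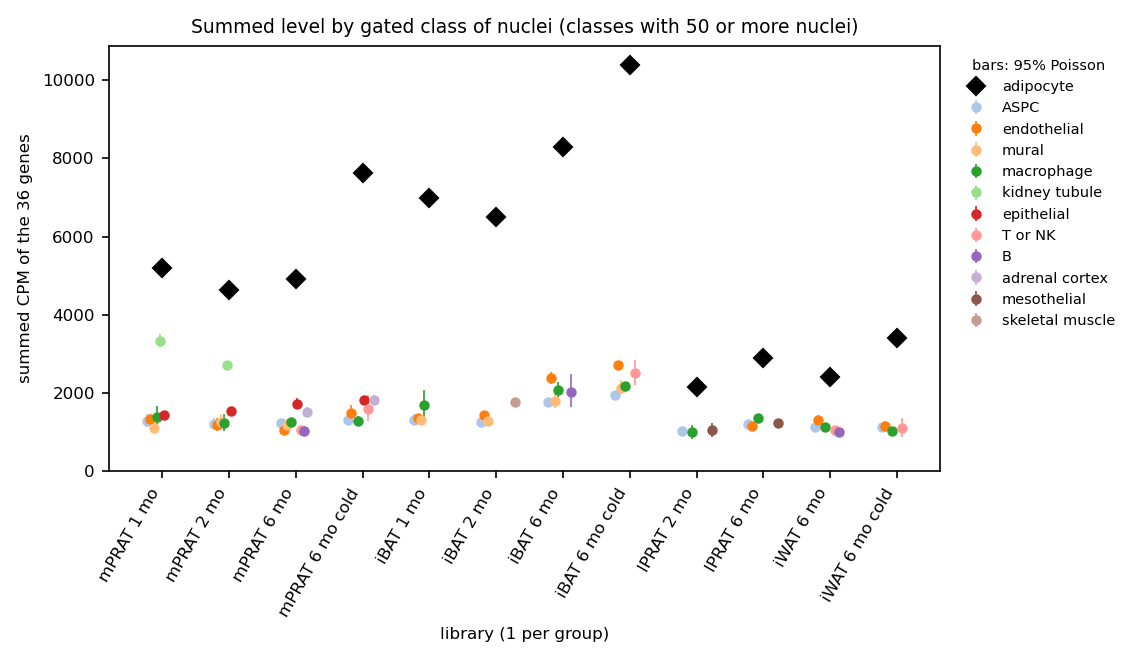
Summed CPM of the 36 genes (vertical axis) by library (horizontal axis), 1 point for each gated class with at least 50 nuclei and bars for exact Poisson intervals. Adipocyte points run from 2152 to 10382 CPM, and within each library the adipocyte point is the highest.

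Free RNA from lysed cells can place adipocyte transcripts in other nuclei, so shares of nuclei with a UMI were set beside those of macrophages, for which Cpt1b is not a characteristic gene. With each nucleus thinned to 1000 UMIs, 51.9% of cold iBAT adipocyte nuclei held a Cpt1b UMI, against 13.2% of macrophages (97.4% and 25.7% unthinned, with median depths of 6651 and 2184 UMIs). In iWAT the share was 0.395% at 22 °C, near the 0.376% of macrophages, and 4.31% in the cold, against 1.05% of macrophages (unthinned 2.29% and 1.24%, then 10.9% and 1.51%). In lPRAT at 6 months it was 0.650% against 1.19% of macrophages (3.29% and 3.20% unthinned, with median depths of 6630.5 and 2472.5 UMIs). Median depths in iWAT were 6647.5 and 1979 UMIs at 22 °C, and 4794 and 1485.5 UMIs in the cold. Thinning left out 29 of the cold iBAT adipocyte nuclei and 22 of the macrophages, and 113 of the warm and 30 of the cold iWAT adipocyte nuclei and 65 and 184 of the macrophages. Of thinned ASPC and endothelial nuclei, 0.289% and 0.705% held a Cpt1b UMI in warm iWAT, and 0.598% and 0.804% in cold iWAT. In lPRAT at 6 months 0.353% and 0.316% did. The warm iWAT adipocyte share thus lay within the range of these classes and macrophages, and the cold share above all of them. The lPRAT adipocyte share lay below macrophages and above ASPC and endothelial nuclei. The part of free RNA in these shares was not tested. For Cpt1a the share was lower in adipocytes, at 2.22% of nuclei against 17.9% of macrophages in iWAT at 22 °C. For Pank1 it was 2.22% of adipocytes against 3.49% of macrophages in warm iWAT (11.5% and 6.81% unthinned). In lPRAT at 6 months it was 0.994% against 2.34% (6.47% and 5.19% unthinned), and in cold iWAT 8.52% against 5.92%. ASPC and endothelial nuclei held a Pank1 UMI in 0.657% and 0.453% in warm iWAT, and in 0.427% and 0.463% in lPRAT. The part of free RNA in Pank1 was not tested. The mean number of UMIs of the 36 genes per thinned adipocyte nucleus was 8.44 in iBAT and 10.5 in cold iBAT, 5.49 and 7.83 in mPRAT, and 2.48 and 3.62 in iWAT at 6 months.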

How the data were processed

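Nuclear RNA was counted in 12 libraries, 1 per group, so no comparison has a test and all intervals cover counting error only. The files the authors deposited hold raw UMI counts per gene and barcode. Per the submitters' processing notes Cell Ranger 7.0.0 and mm10 were used. Intronic counting, the annotation and the barcode filter are not given in the sources used here, nor is the number of animals in a library. Of 119035 barcodes 96649 were kept, with at least 500 UMIs, 300 genes and at most 10% mitochondrial counts, after removal of the highest scrublet doublet scores at 0.8% per 1000 nuclei. A nucleus was gated to a class with at least 3 UMIs and 2 markers of that class, which had to hold 70% of its class-marker UMIs, over 14 marker lists. Gated this way, 58485 nuclei were adipocytes and 18585 had no class. Counts were summed per class and library and scaled to the UMI total. Ratios carry exact conditional binomial intervals and levels exact Poisson intervals, at 95%. A gene was counted as different past 2-fold, with an interval leaving out 1 and at least 20 counts. In each comparison Cpt1a, Cpt1b and up to 5 members in either direction past these limits were named, or the 3 largest where fewer than 3 passed, and further members by role. From the other lists up to 4 of the largest such genes were named. The ketone body list between iBAT and iWAT is not reported here. The members, lists and tests were chosen with earlier results of these data known. Of the 32285 identifiers 32158 were found in GENCODE M21 (GRCm38), the source of gene positions. Of the members 14 are overlapped by a counted gene on the opposite strand, whose reads cannot be told apart if counting ignored strand. A 0 allows a level of 3 counts. The 11 alternatives per comparison covered scaling (TMM from edgeR 4.0.16), count minimum, pseudocount, gating, Leiden clusters (scanpy 1.11.5, leidenalg 0.10.2), mitochondrial limit, doublets, depth and averaging over nuclei. The scripts ran in Python 3.11.15 with numpy 2.4.6, scipy 1.17.1, pandas 2.3.3 and matplotlib 3.10.9 and were tested on simulated data.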

Additional observations from a re-analysis of the deposited data

Results flagged for a closer look

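Acaa1b moved in opposite directions with age in different depots. From 1 to 2 months its log2 ratio was 0.92 in iBAT and -0.59 in mPRAT, and from 2 to 6 months it was 0.62 in iBAT and -1.98 in lPRAT. Acot11 had log2 ratios from 2 to 6 months of 0.62 in mPRAT and 1.15 in iBAT, and of -1.62 in lPRAT, where it rested on 15 counts at 6 months and 7 at 2 months. Each was singled out because the change went one way in 1 depot and the other way in another, and the difference between the depots was not tested.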

How the results depend on the processing

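With 1 library per group no replicate can be left out. No paired analysis was possible because the groups share no replicate numbers beyond a single library each. The median log2 ratio of the members stayed close to the reported value in 152 recomputations and moved in 16. Under TMM scaling it became 0.0923 (mPRAT from 1 to 2 months), 0.52 (cold iBAT), 0.54 (cold iWAT), 0.61 (mPRAT over iWAT) and -0.32 (cold mPRAT over cold iBAT). With the median of all genes set to 0 it became -0.0233 (mPRAT from 2 to 6 months), 0.43 (cold iBAT), 0.61 (cold iWAT), 0.63 (mPRAT over iWAT) and -0.73 (cold iWAT over cold iBAT). With 10 CPM added it became 0.24 (mPRAT over lPRAT), 0.56 (mPRAT over iWAT), 0.93 (iBAT over iWAT) and -0.77 (cold iWAT over cold iBAT). With means over nuclei it became 0.40 (cold mPRAT) and -0.83 (cold iWAT over cold iBAT). Of the recomputed ratios of single genes, 1193 stayed close to the reported value, 256 moved and 4 changed direction, which are given next. The ratio of Cpt1b in mPRAT from 2 to 6 months became -0.0181 with the median of all genes set to 0 and -0.00866 with clusters in place of the gate, that of Cpt1a in lPRAT became -0.134 in nuclei with at least 2000 UMIs, and that of Cpt1a in cold iWAT became 0.0193 with the median of all genes set to 0. TMM scaling shifted all log2 ratios by 0.23 in mPRAT from 1 to 2 months, -0.11 in mPRAT over iWAT and -0.12 in cold mPRAT over cold iBAT.

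The number of members past 2-fold moved by over 1.5 times in 33 of 336 recomputations. From 1 to 2 months, where 0 were reported, TMM scaling gave 1 higher in mPRAT and 2 in iBAT. The 90% gate gave 2 lower in mPRAT and 1 higher and 1 lower in iBAT, nuclei with at least 2000 UMIs gave 1 lower in either depot, and the median set to 0 and means over nuclei each gave 1 higher in iBAT. From 2 to 6 months in iBAT the 3 higher became 1 with 10 CPM added, and the 1 lower became 0 with that, with 100 counts required or with 2000 UMIs. In lPRAT the 5 higher became 8 under TMM scaling and 0 with 10 CPM added, and the 2 lower became 1 with 10 CPM added, with 100 counts required, with the 90% gate, with no mitochondrial limit or with 2000 UMIs. In the cold the 7 higher in mPRAT became 3 with 10 CPM added and 4 with means over nuclei, and the 5 higher in iBAT became 3 with 10 CPM added. In mPRAT over iBAT the 1 higher became 0 with 10 CPM added and 2 with means over nuclei, which also took the 5 lower to 3. Means over nuclei gave 1 lower in mPRAT over lPRAT. In mPRAT over iWAT means, TMM scaling and the median set to 0 each gave 1 lower, and the last gave 2 lower in iBAT over iWAT. In lPRAT over iWAT the 2 lower became 0 with 10 CPM added, and in cold mPRAT over cold iBAT the 1 lower became 2 under TMM scaling. The cause of these changes was not tested. The counts without cold mPRAT or without lPRAT at 2 months were added after seeing the data. Counts limit Acot1, Acot3 and, in lPRAT and iWAT, Acot11.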
